A study of Homo sapiens with 39 samples.

Results

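The histone cluster genes are the 66 targets of the AmpliSeq panel whose symbols begin with HIST1H, HIST2H, HIST3H or HIST4H, out of 20802 gene targets measured. By symbol, 6 are of the linker histone class H1, 15 of H2A, 20 of H2B, 12 of H3 and 13 of H4. In the same way, 55 belong to the cluster HIST1, 7 to HIST2, 3 to HIST3 and 1 to HIST4. HIST2H2BA and HIST2H2BC, counted here in H2B, carry the current symbols H2BP1 and H2BC20P, which are those of pseudogenes. For the effects of concentration, the 41 genes with a median of at least 10 counts over the 39 libraries were kept (3 H1, 12 H2A, 9 H2B, 8 H3 and 9 H4; 36 in HIST1 and 5 in HIST2). Over all targets, 12915 met the same limit.

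HepaRG™, a line of human hepatic progenitor cells, was used here after differentiation into hepatocyte-like and cholangiocyte-like cells. Cells received daily treatments on 3 days and were sampled a few hours after the last. The 5 DNA damage-inducing (DDI) chemicals were aflatoxin B1 (AFB1; 0.25, 1 and 2.5 µM), 2-nitrofluorene (2NF; 10, 50 and 250 µM), cisplatin (CISP; 2, 5 and 10 µM), etoposide (ETP; 0.5, 2.5 and 10 µM) and methyl methanesulfonate (MMS; 50, 100 and 200 µM). The 5 non-DDI chemicals were colchicine (COL; 0.05, 0.1 and 0.3 µM), 2-deoxy-D-glucose (2DG; 1.25, 5 and 10 mM), sodium ascorbate (ASC; 1, 2 and 10 mM), ampicillin trihydrate (AMP; 1, 3 and 10 mM) and sodium chloride (NaCl; 1, 2.5 and 10 mM). The 9 vehicle controls were 4 of DMSO (2NF, CISP, ETP, and 1 shared by AFB1 and COL), 4 of media (2DG, ASC, AMP and NaCl) and 1 of water (MMS). RNA of the 3 cultures of a condition was pooled into 1 library, so no condition has replicates, and a ratio of a treated library to its control carries no test.

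Histones package DNA into nucleosomes, in which DNA winds around a core of H2A, H2B, H3 and H4, while linker histone H1 binds where DNA enters and leaves the core. Most genes of the histone clusters are replication-dependent: they are transcribed mainly in S phase, when newly made DNA needs new nucleosomes, and their mRNAs end in a conserved stem-loop instead of a poly(A) tail. The stem-loop is bound by SLBP, which takes part in the processing and translation of these mRNAs and in their removal when DNA synthesis stops. A few cluster genes also yield polyadenylated mRNAs, which are found in cells that no longer divide, as most differentiated liver cells do not. Replacement histones such as H2AFZ and H3F3A lie outside the clusters and are made throughout the cell cycle.

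The stem-loop is shown because it is the feature that sets these mRNAs apart from other mRNAs, and because AmpliSeq cDNA is made with random primers, so that mRNAs with and without a poly(A) tail can both be read. A search for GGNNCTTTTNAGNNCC in the GENCODE release 29 transcripts of the 66 genes found it in 26, of which 16 are among the 41 kept genes. A gene without a match is only one in which these letters are not in the annotated transcript. The matches had 5 forms. One gene of each form is printed here from 5′ to 3′, with the 16 bases of the stem-loop in capitals.
HIST1H2AE: caaaGGCTCTTTTCAGAGCCaccca
HIST2H2BC: caaaGGCTCTTTTCAGGGCCattta
HIST1H2BD: caaaGGCTCTTTTAAGAGCCacgca
HIST1H4E: caaaGGCCCTTTTCAGGGCCgccca
HIST1H4I: aaaaGGCCCTTTTTAGGGCCcctaa
The form of HIST1H2AE was found in 13 genes, that of HIST1H4E in 5, all of class H4, that of HIST1H2BD in 5, that of HIST2H2BC in 2 and that of HIST1H4I in 1.

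The 39 libraries held 8504699 to 16425527 counts on gene targets (median 11202013), and levels are given as reads per 1000000 reads of the library (RPM). A binomial confidence interval (Wilson, 95%) had a half-width of 2.88% to 274% of the value over the 41 genes and 39 libraries, with a median of 14.99%. These intervals cover counting error only. The panel reads 1 amplicon per gene, so RPM were compared between libraries for the same gene and not between genes as abundance. Of the 10 hepatocyte markers all were above 1 RPM in the controls, while of the 7 cholangiocyte markers KRT7, EPCAM and CFTR stayed below 1 RPM in all 9 controls. The libraries of CISP low and 2DG low stood apart: 858 and 439 of 12915 targets were more than 2-fold below their controls, 289 of them in both. Genes of the same class are near copies of each other. The annotation lists 10 gene identifiers beside each HIST1H3 target and 14 beside each HIST1H4 target except HIST1H4G. Among the kept H2A genes it lists 6 beside HIST1H2AG, HIST1H2AK, HIST1H2AL and HIST1H2AM, and 2 beside HIST1H2AB and HIST1H2AE. It lists 5 beside HIST1H2BC, HIST1H2BE, HIST1H2BF and HIST1H2BG, and 3 beside HIST2H3D. The division of reads between such copies is therefore uncertain in the H2A, H2B, H3 and H4 classes.

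The 25 genes below the limit included every gene of HIST3 and HIST4, and 11 of the 20 H2B genes. Each had at least 1 count in some library, and 10 had a median of 0. The highest of them was HIST1H3H, with a median of 9 counts and at most 19, in the library of 2NF high. HIST3H3 had a median of 8 counts, HIST4H4 and HIST1H2AI each had a median of 7. No change is reported for these 25 genes.

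Among the vehicle controls, which were run beside the treated cultures, levels differed between DMSO and media. In 12 of the 41 genes all 4 DMSO controls lay below all 4 media controls, against 8.87% of the 12915 targets. They were 4 H2A genes (HIST1H2AB, HIST1H2AD, HIST1H2AE and HIST1H2AH), 4 H3 genes (HIST1H3A, HIST1H3B, HIST1H3C and HIST1H3I) and 4 H4 genes (HIST1H4A, HIST1H4B, HIST1H4C and HIST1H4H). HIST1H3B, which encodes the replication-dependent H3.1, had 41.5 to 58.2 RPM in the 4 DMSO controls (median 56.3), 93.5 to 191 RPM in the 4 media controls (median 121) and 148 RPM in the water control. HIST1H3C, which encodes the same protein, had 41.9 to 60.1 RPM in the 4 DMSO controls (median 49.3), 69.7 to 155 RPM in the 4 media controls (median 105) and 114 RPM in the water control. The groups of 4 did not overlap in either gene. Only HIST2H2BC lay the other way, with 6.702 to 12.3 RPM in the 4 DMSO controls (median 7.79). It had 4.79 to 6.299 RPM in the 4 media controls (median 5.68) and 6.74 RPM in the water control. The share of all targets lying this way was not counted. Vehicle and chemical go together here, since DMSO was used for 4 of the 5 DDI chemicals and for COL, and media for the other 4 non-DDI chemicals, so their parts in a level cannot be told apart, and each treated library was therefore read against its own control.

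Some genes also differed widely between single controls. HIST1H2BC, an H2B gene, had 29.2 to 127 RPM in the 4 DMSO controls (median 88.5), 20.6 to 188 RPM in the 4 media controls (median 98.96) and 60.2 RPM in the water control. The controls of ASC (20.6 RPM), AMP (22.2 RPM) and ETP (29.2 RPM) were low, and those of 2DG (176 RPM) and NaCl (188 RPM) were high. In 10 of the 41 genes (24.4%) the highest of all 9 controls, vehicles mixed, was more than 4 times the lowest, against 7.18% of 12915 targets, and these included HIST1H1B, HIST1H2AJ and HIST1H2BF besides HIST1H2BC. Other genes were even: HIST1H2BK had 153 to 194 RPM in the 4 DMSO controls (median 193), 158 to 191 RPM in the 4 media controls (median 168) and 167 RPM in the water control, and HIST2H2BE had 172 to 257 RPM in the 4 DMSO controls (median 228), 213 to 266 RPM in the 4 media controls (median 244) and 219.7 RPM in the water control.

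**Figure D1:**
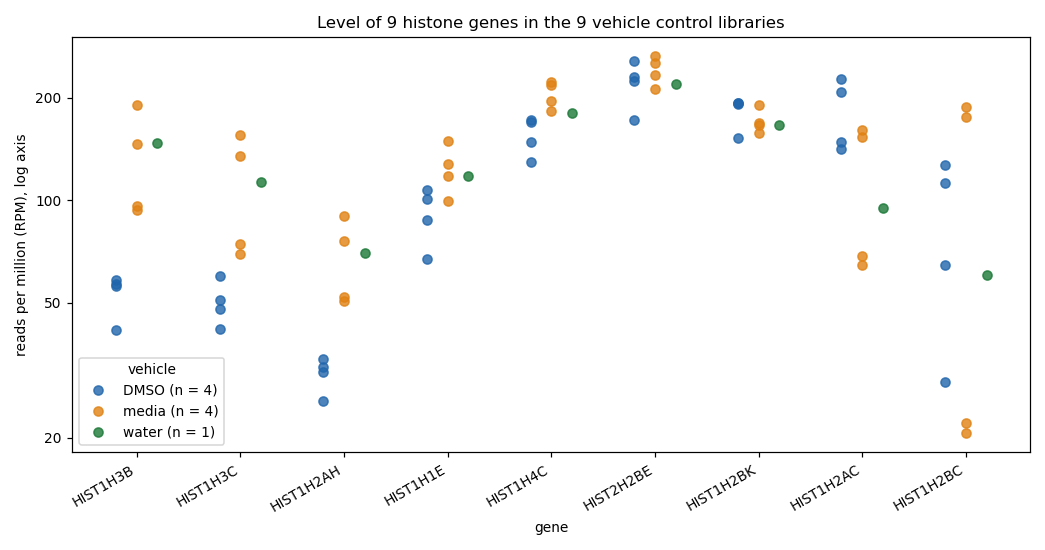
Level of 9 histone genes in each of the 9 vehicle control libraries, in RPM on a log axis; each point is 1 library, coloured by vehicle. HIST1H3B, HIST1H3C, HIST1H2AH and HIST1H4C lie lower in all 4 DMSO controls than in all 4 media controls, while HIST1H2BC runs from 20.6 to 188 RPM within the media controls alone.

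The histone cluster genes as a group were higher at each further concentration of AFB1 and 2NF. With MMS they rose up to the mid concentration, and the high one was level with it. The Wilson 95% intervals of these 2 MMS sums overlapped (3281 to 3348 and 3293 to 3369 RPM). ASC and AMP lay above their controls at all 3 concentrations without a rise from low to high. The RPM summed over the 66 genes were 1874, 2397, 2787 and 4481 in the 2NF control and at the low, mid and high concentrations, 2.39-fold higher at the end (Wilson 95% intervals 1847 to 1902 and 4441 to 4522 RPM for the first and the last). For AFB1 the sums were 1545, 1857, 2153 and 3361 RPM, or 2.17-fold, and for MMS 2093, 2561, 3314 and 3331 RPM, or 1.59-fold. For COL, which shares its control with AFB1, they were 1545, 1459, 1507 and 1499 RPM. The sums of the 9 controls ran from 1545 to 2772 RPM. The highest sums of AFB1, 2NF and MMS were above every control, and so was that of 2DG mid, a library of a non-DDI chemical (2841 RPM).

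The median log2 ratio of the 41 genes to the matched control rose with each step for 2NF, AFB1 and MMS. At the high concentration it reached 1.35, 1.00 and 0.72 in that order. The median of all 12915 targets there was 0.054, 0.089 and 0.098. More than 2-fold above the control were 28 of 41 genes at 2NF high (4.43% of all targets), 10 at 2NF mid (2.76%), 20 at AFB1 high (3.31%) and 10 at MMS high (3.13%). None of the 41 was more than 2-fold lower in these 4 libraries except HIST1H2BC at 2NF mid (-1.40). Of the 12915 targets, 429 were more than 2-fold lower at 2NF high, 533 at 2NF mid, 398 at AFB1 high and 732 at MMS high. Against the mean of all 9 controls the counts were 4 at 2NF mid, 10 at AFB1 high and 16 at MMS high, and with DESeq2 size factors 6 at MMS high. The share of all targets was not counted in these 2 settings. The heat map sets these ratios beside those of the other chemicals.

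The trend over concentration was tested for each chemical in 1 edgeR fit of all 39 libraries, as a log2 slope per concentration rank (control, low, mid and high as 0, 1, 2 and 3). The spread in this test is the departure of libraries from straight lines and not the spread between cultures. With an adjusted p under 0.05 (Benjamini-Hochberg over 13812 targets), 23 of the 41 genes rose with 2NF, 17 with AFB1 and 7 with MMS, where the rising share of all targets was 4.3%, 2.36% and 5.1%. The falling share of all targets was 4.45%, 3.21% and 10.4%, and the 1 histone gene that fell was HIST1H2BK, with MMS. Of the 17 that rose with AFB1, 16 were among the 23 that rose with 2NF. With the high concentration left out, 0 of the 41 genes rose with AFB1 and 5 with 2NF, where 0% and 1.4% of all targets rose, and HIST1H2BK no longer passed with MMS, where 7.04% of all targets fell. The 6 that rose with all 3 chemicals were HIST1H2AE, HIST1H2BN, HIST1H3B, HIST1H3C, HIST1H4C and HIST2H2AB.

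COL changed many targets (5.13% rose and 7.21% fell) and 0 of the 41 genes, with a median slope of -0.017. With the vehicle in place of the control set in the fit, 6 of the 41 fell with COL, and 10.4% of all targets fell in that fit. No histone gene passed with the other chemicals either. The rising and falling shares of all targets there were 0% and 0% for CISP, 0.0796% and 0% for ETP, 0.0145% and 0.0434% for ASC, 0.0362% and 0.00724% for NaCl, 0% and 0% for 2DG and 0% and 0% for AMP. At an unadjusted p under 0.05 the edgeR trends called 456 rising and 463 falling targets for CISP, 411 rising and 180 falling for ETP, 84 rising and 128 falling for 2DG, 949 rising and 1016 falling for ASC, 181 rising and 237 falling for AMP and 426 rising and 213 falling for NaCl.

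**Figure D2:**
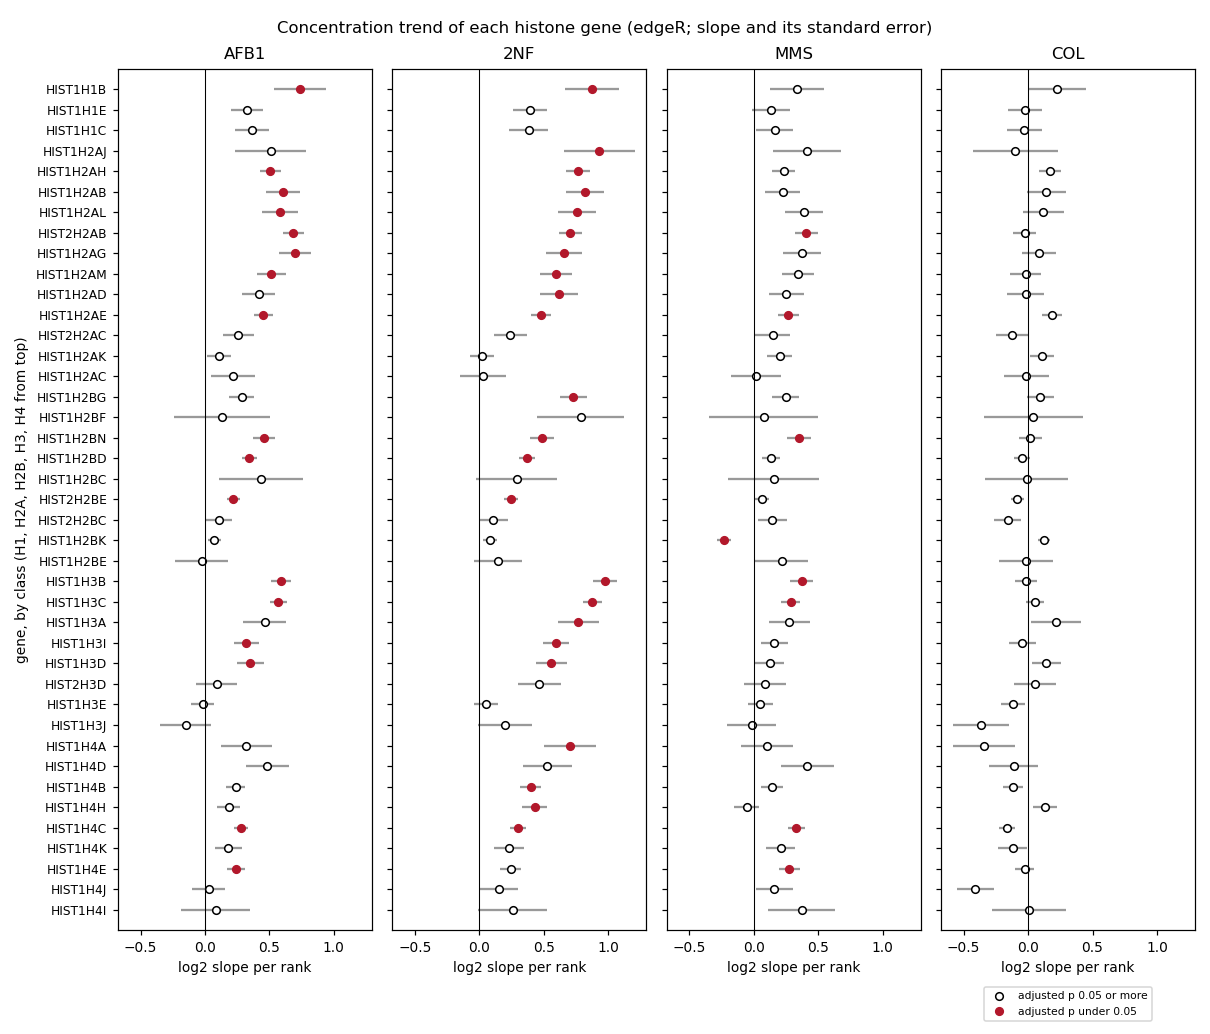
Log2 slope per concentration rank (x axis) with its standard error (bars) for the 41 kept histone genes (y axis, by class) with AFB1, 2NF, MMS and COL; filled points have an adjusted p under 0.05. Filled points lie to the right for 17, 23 and 7 genes, the single filled point on the left is HIST1H2BK with MMS, and the COL panel has none.

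Summed over genes, the H3 class had the highest fold of the 5 classes at 2NF high, AFB1 high and MMS high, and 5 of its 8 genes rose with 2NF, 4 with AFB1 and 2 with MMS. The RPM summed over the H3 class were 125, 215, 423 and 696 from the 2NF control to the high concentration, a 5.57-fold difference. The class was 3.18-fold higher at AFB1 high, with a sum of 410 RPM, and 1.97-fold at MMS high. The H3 sums of the 9 controls ran from 125 to 395 RPM, and the 2NF control was the lowest of them. Most of the 696 RPM at 2NF high came from HIST1H3B and HIST1H3C. HIST1H3B had 41.5 RPM in the 2NF control and 69.9, 199 and 289.7 RPM at the low, mid and high concentrations of 2NF (Wilson 95% intervals 37.6 to 45.8 and 279.5 to 300.2 RPM for the first and the last). Its slope was 0.98 ± 0.094 (edgeR, SE, adjusted p = 2.36e-07), the largest of the 41 genes in this chemical. With AFB1 it had 56.7, 69.3, 127 and 204 RPM in the same order and a slope of 0.59 ± 0.080 (edgeR, SE, adjusted p = 0.000122). With MMS it had 148, 172, 283 and 324 RPM and a slope of 0.37 ± 0.089 (edgeR, SE, adjusted p = 0.005). Every treated library of these 3 chemicals lay above its control.

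HIST1H3C followed the same course, with 47.8 RPM in the 2NF control and 99.04, 169 and 319 RPM at the low, mid and high concentrations of 2NF. Its slope was 0.88 ± 0.075 (edgeR, SE, adjusted p = 6.5e-08) with 2NF, and with AFB1 it was 0.57 ± 0.066 (edgeR, SE, adjusted p = 2e-05). With MMS the levels were 114, 148, 206 and 216 RPM and the slope was 0.29 ± 0.074 (edgeR, SE, adjusted p = 0.00865). HIST1H3A, a gene of few counts, had 1.05 RPM in the 2NF control and 2.96, 2.41 and 7.19 RPM at the low, mid and high concentrations of 2NF and a slope of 0.77 ± 0.16 (edgeR, SE, adjusted p = 0.00188), and its value at AFB1 high was 2.62 RPM against 0.788. HIST1H3D and HIST1H3I also rose with both AFB1 and 2NF. HIST1H3E, chosen after its values were seen, did not pass and had log2 ratios of -0.12, 0.15 and 0.036 over AFB1 and 0.071, -0.075 and 0.27 over 2NF, and slopes of -0.018 ± 0.089 and 0.050 ± 0.094 (SE).

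Of the 12 H2A genes, 9 rose with 2NF, 7 with AFB1 and 2 with MMS. HIST2H2AB, in the cluster HIST2, had 13.03 RPM in the AFB1 control and 15.8, 27.5 and 54.1 RPM at the low, mid and high concentrations of AFB1, with a slope of 0.69 ± 0.079 (edgeR, SE, adjusted p = 2e-05). With 2NF it had 16.02, 26.1, 42.2 and 73.04 RPM in the same order and a slope of 0.71 ± 0.089 (edgeR, SE, adjusted p = 9.92e-06), and with MMS 24.4, 30.02, 53.3 and 56.3 RPM and a slope of 0.41 ± 0.089 (edgeR, SE, adjusted p = 0.00232). HIST1H2AG had 32.9, 42.2, 63.3 and 151 RPM over AFB1, a slope of 0.70 ± 0.13 (edgeR, SE, adjusted p = 0.000807), and 41.7, 58.1, 75.8 and 178 RPM over 2NF, a slope of 0.66 ± 0.14 (edgeR, SE, adjusted p = 0.00205). HIST1H2AJ reached 9.11 RPM at 2NF high from 0.838 RPM, with a slope of 0.93 ± 0.27 (edgeR, SE, adjusted p = 0.0293), and rests on 8 and 95 counts. The level was highest at the high concentration in each of these series.

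HIST1H2AC, an H2A gene that also yields polyadenylated mRNA, did not pass in any of the 3 chemicals: it had 208 RPM in the 2NF control and 179, 139 and 248 RPM at the low, mid and high concentrations of 2NF, and a slope of 0.030 ± 0.18 (edgeR, SE, adjusted p = 0.962). HIST1H2AK had slopes of 0.11 ± 0.093 with AFB1 and 0.021 ± 0.095 with 2NF (SE).

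Among the 3 H1 genes, HIST1H1B, which encodes the replication-dependent linker histone H1.5, had 4.71 RPM in the 2NF control and 11.6, 8.93 and 37.7 RPM at the low, mid and high concentrations of 2NF and a slope of 0.87 ± 0.21 (edgeR, SE, adjusted p = 0.00674). With AFB1 it had 3.08, 4.22, 6.71 and 16.8 RPM and a slope of 0.74 ± 0.20 (edgeR, SE, adjusted p = 0.0255), the largest of the 41 genes in that chemical, but its 9 controls spread over 2.19 to 17.9 RPM. HIST1H1E (H1.4) had 107, 129, 121 and 273 RPM over 2NF, with a slope of 0.39 ± 0.13 (edgeR, SE, adjusted p = 0.0669), and HIST1H1C (H1.2), which also yields polyadenylated mRNA, had 121, 184, 198 and 301 RPM, with a slope of 0.38 ± 0.15 (edgeR, SE, adjusted p = 0.125). Both were highest at 2NF high, and neither passed the test.

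Of the 9 H2B genes, 4 rose with 2NF and 3 with AFB1, and with MMS 1 rose and 1 fell. HIST1H2BN had 30.2 RPM in the 2NF control and 53.8, 54.01 and 97.2 RPM at the low, mid and high concentrations of 2NF, with a slope of 0.48 ± 0.093 (edgeR, SE, adjusted p = 0.000826). Its slope was 0.46 ± 0.084 (edgeR, SE, adjusted p = 0.00109) with AFB1 and 0.35 ± 0.095 (edgeR, SE, adjusted p = 0.0129) with MMS, where it had 44.3, 64.97, 94.9 and 95.2 RPM. HIST1H2BD and HIST2H2BE, the 2 H2B genes with the most reads, had smaller slopes. HIST1H2BD had 197, 269, 354 and 444 RPM over 2NF, a slope of 0.37 ± 0.065 (edgeR, SE, adjusted p = 0.000355), and 175, 207, 265 and 390.1 RPM over AFB1, a slope of 0.34 ± 0.058 (edgeR, SE, adjusted p = 0.000555). HIST2H2BE had 230.2, 295, 307 and 418 RPM over 2NF, a slope of 0.24 ± 0.054 (edgeR, SE, adjusted p = 0.0036), and 172, 201, 222 and 296 RPM over AFB1, a slope of 0.22 ± 0.050 (edgeR, SE, adjusted p = 0.00684). In both genes the high concentration gave the highest level of the 4 libraries.

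HIST1H2BK was the 1 gene of the 41 that fell. It had 167 RPM in the MMS control and 154, 159.7 and 104 RPM at the low, mid and high concentrations of MMS, so that only the high concentration lay far below the control, and a slope of -0.23 ± 0.055 (edgeR, SE, adjusted p = 0.00462). With 2NF it had 193, 212, 234 and 237 RPM and a slope of 0.081 ± 0.053 (edgeR, SE, adjusted p = 0.47), and with AFB1 153, 173, 171 and 191 RPM and a slope of 0.072 ± 0.049 (edgeR, SE, adjusted p = 0.543). HIST1H2BE, with 11 counts at the median, had slopes of -0.026 ± 0.20 with AFB1 and 0.14 ± 0.19 with 2NF (SE), neither of which passed.

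Of the 6 genes listed as also giving polyadenylated mRNA (HIST1H1C, HIST1H2AC, HIST1H2BC, HIST1H2BD, HIST1H2BK and HIST2H2BE), 2 rose with 2NF and 2 with AFB1, HIST1H2BD and HIST2H2BE in both, and the list's median slope was 0.27 with 2NF and 0.28 with AFB1. Over the 41 genes the median slope was 0.46 and 0.32, and over all targets it was -0.0026 and -0.0013. The files hold 1 amplicon per gene and do not tell the 2 mRNA forms apart.

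Of the 9 H4 genes, 4 rose with 2NF, 2 with AFB1 and 2 with MMS. HIST1H4C had 180.5 RPM in the MMS control and 230.4, 364 and 360.1 RPM at the low, mid and high concentrations of MMS, a slope of 0.33 ± 0.065 (edgeR, SE, adjusted p = 0.000922). It had 129.8, 170.1, 177 and 267 RPM over 2NF, a slope of 0.30 ± 0.063 (edgeR, SE, adjusted p = 0.00196), and 148, 156, 208 and 282 RPM over AFB1, a slope of 0.28 ± 0.057 (edgeR, SE, adjusted p = 0.00291). With MMS its mid and high libraries were level with each other. HIST1H4E had 88.6, 89.03, 109 and 159 RPM over AFB1, a slope of 0.24 ± 0.071 (edgeR, SE, adjusted p = 0.0414), and 99.6, 147, 176 and 194 RPM over MMS, a slope of 0.28 ± 0.082 (edgeR, SE, adjusted p = 0.0223), and did not pass with 2NF, with a slope of 0.25 ± 0.082 (edgeR, SE, adjusted p = 0.0603).

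**Figure D3:**
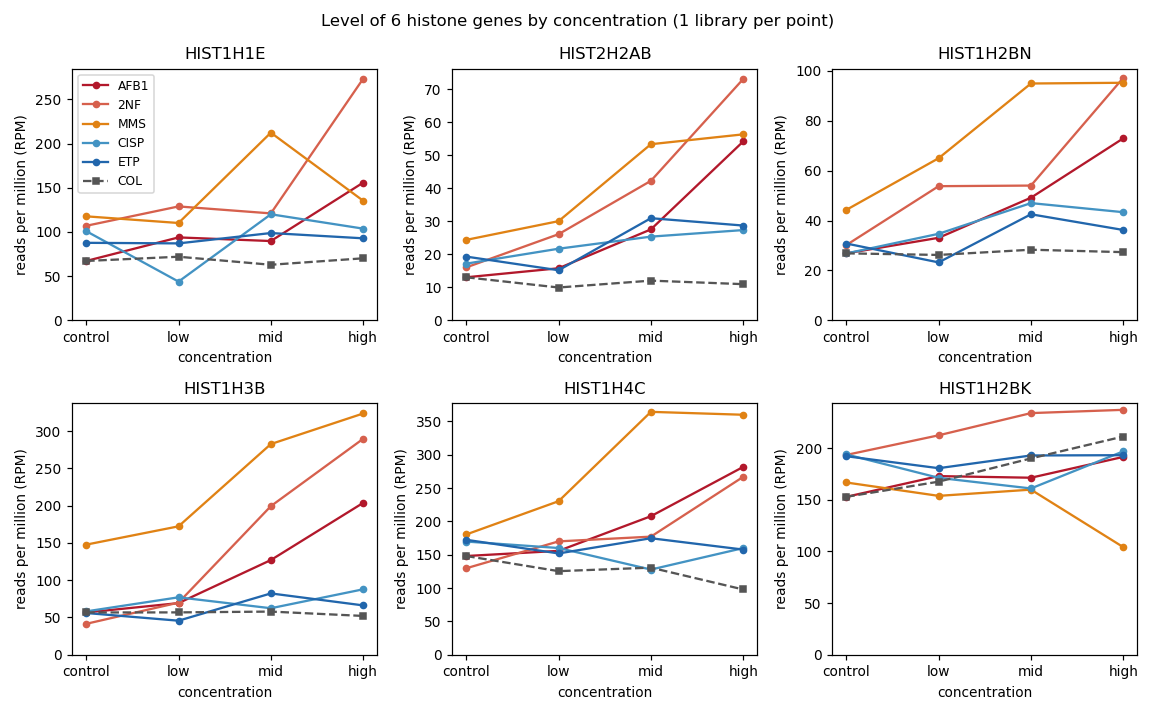
Level in RPM (y axis, from 0) of HIST1H1E, HIST2H2AB, HIST1H2BN, HIST1H3B, HIST1H4C and HIST1H2BK in the control and the low, mid and high libraries (x axis) of AFB1, 2NF, MMS, CISP, ETP and COL; each point is 1 library. HIST1H3B climbs from 41.5 to 289.7 RPM with 2NF and stays between 52.1 and 57.9 RPM with COL, and HIST1H2BK drops to 104 RPM at MMS high.

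By class, the median log2 ratio at 2NF high was 1.35 for H1, 1.99 for H2A, 1.10 for H2B, 1.68 for H3 and 1.04 for H4, at AFB1 high 1.23 for H1, 1.59 for H2A, 0.78 for H2B, 1.01 for H3 and 0.84 for H4, and at MMS high 0.72 for H1, 0.96 for H2A, 0.57 for H2B, 0.62 for H3 and 0.71 for H4. H2B had the lowest or next to lowest median of the 5 classes in each of these, and H2A the highest. The order of the summed RPM was not the same. Summed over genes, H3 led with 2NF (5.57-fold against 1.91-fold for H2B) and AFB1 (3.18-fold against 1.87-fold). These are descriptions of single libraries, and differences between classes were not tested.

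**Figure D4:**
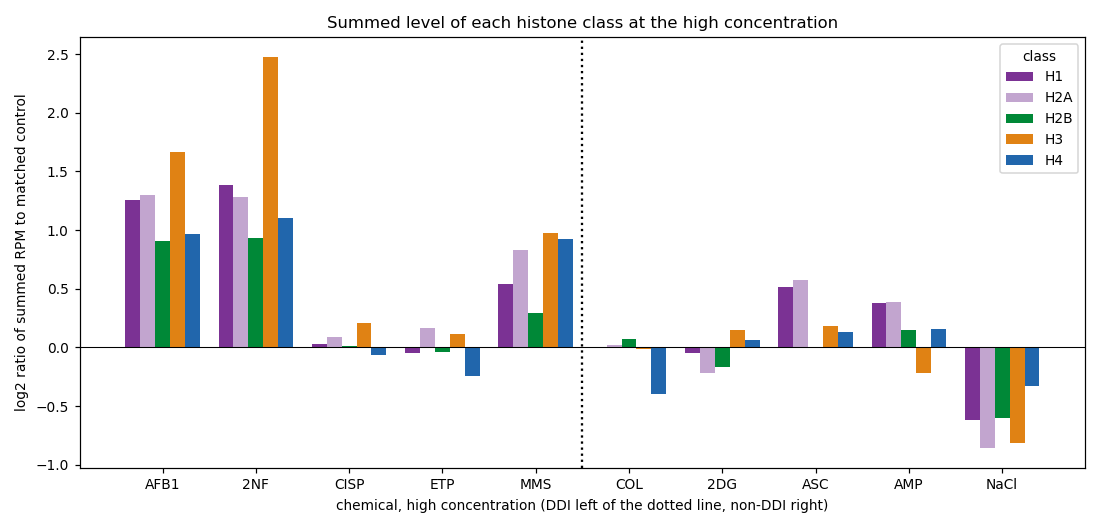
Log2 ratio of the RPM summed over each histone class to the matched control (y axis) at the high concentration of each chemical (x axis); each bar is 1 library against 1 control. All 5 classes stand above 0 for AFB1, 2NF and MMS, with H3 at 2.48 for 2NF, while NaCl lies below 0 in all 5.

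Between clusters, the 36 HIST1 genes had a median log2 ratio of 1.49 and the 5 HIST2 genes 0.93 at 2NF high, and 1.03 and 0.77 at AFB1 high. Of the HIST2 genes, HIST2H2AB and HIST2H2BE rose with both chemicals. HIST2H2AC had 34.98, 46.1, 37.5 and 67.4 RPM over 2NF, with a slope of 0.24 ± 0.13 (edgeR, SE, adjusted p = 0.326). HIST2H2BC had 6.702, 8.02, 9.64 and 8.53 RPM, with a slope of 0.11 ± 0.11 (edgeR, SE, adjusted p = 0.7), and HIST2H3D had 1.57, 3.34, 5.36 and 4.505 RPM, with a slope of 0.46 ± 0.17 (edgeR, SE, adjusted p = 0.0904). With 5 genes, HIST2 is too small a group to set against HIST1, and the difference was not tested.

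The promoters of genes that did and did not rise are shown next. They are the 250 bases before the start in RefSeq (GRCh38.p14), read 5′ to 3′ on the strand of the gene. Capitals mark 3 motifs. The CCAAT box was searched as CCAAT on either strand. The octamer known from H2B promoters was searched by 7 of its letters, as ATTTGCA on either strand. The TATA box was searched as TATAAA on the strand of the gene. The letters of the 3 motifs do not contain one another. HIST1H3B and HIST2H2AB rose with AFB1, 2NF and MMS, and HIST1H2BN did as well. HIST1H2BK did not rise with any of them, and fell with MMS.
HIST1H3B, chr6:26032100-26032349, minus strand: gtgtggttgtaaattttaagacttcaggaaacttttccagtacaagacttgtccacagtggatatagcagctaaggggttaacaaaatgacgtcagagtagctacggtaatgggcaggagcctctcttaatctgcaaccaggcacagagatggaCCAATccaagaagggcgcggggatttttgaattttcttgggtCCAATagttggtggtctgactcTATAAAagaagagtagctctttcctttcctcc
HIST2H2AB, chr1:149887966-149888215, minus strand: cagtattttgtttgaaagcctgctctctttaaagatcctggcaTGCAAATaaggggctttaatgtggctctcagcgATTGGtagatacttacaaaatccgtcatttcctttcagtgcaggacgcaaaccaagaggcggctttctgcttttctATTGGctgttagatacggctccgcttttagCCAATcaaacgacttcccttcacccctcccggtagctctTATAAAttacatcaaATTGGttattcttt
HIST1H2BN, chr6:27838319-27838568, plus strand: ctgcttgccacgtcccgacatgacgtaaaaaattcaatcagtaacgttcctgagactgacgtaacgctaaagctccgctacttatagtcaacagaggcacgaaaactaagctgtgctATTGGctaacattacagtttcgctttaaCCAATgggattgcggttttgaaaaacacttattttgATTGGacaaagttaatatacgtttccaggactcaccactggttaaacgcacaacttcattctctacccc
HIST1H2BK, chr6:27146859-27147108, minus strand: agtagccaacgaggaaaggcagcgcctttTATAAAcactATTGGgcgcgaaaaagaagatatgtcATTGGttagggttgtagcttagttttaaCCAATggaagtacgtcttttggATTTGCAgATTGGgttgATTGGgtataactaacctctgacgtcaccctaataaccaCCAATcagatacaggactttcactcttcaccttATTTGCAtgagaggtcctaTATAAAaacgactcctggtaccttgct
In windows of 300 bases (250 before to 50 after the start), CCAAT was found in 29 of 35 kept genes with a window in the table (82.9%) and in 9747 of 27305 promoters of the whole table (35.7%). ATTTGCA was found in 18 of 35 (51.4%) against 1154 of 27305 (4.23%), and TATAAA in 20 of 35 (57.1%) against 2104 of 27305 (7.71%).

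The motifs differed between classes. CCAAT was present in every kept H1, H2A, H2B and H3 gene with a window, 28 in all, and in 1 of 7 H4 genes. ATTTGCA was present in 10 of 11 H2A and 6 of 8 H2B genes, 2 of 6 H3 genes and 0 of 7 H4 genes. Among the genes that rose with AFB1 or 2NF, 17 of 20 held CCAAT, 12 of 20 ATTTGCA and 11 of 20 TATAAA, and among those that rose with neither the counts were 12 of 15, 6 of 15 and 9 of 15. HIST1H2BK, which did not rise, holds all 3 motifs. A match is a description of letters and not a site of binding.

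Many H2A and H2B genes stand head to head and share a promoter region. The window of HIST1H2BN overlaps that of HIST1H2AK by 293 bases on the other strand. At AFB1 high the log2 ratio was 1.41 for HIST1H2BN and 0.29 for HIST1H2AK, and at 2NF high it was 1.66 and 0.26. HIST1H2AE and HIST1H2BG, which overlap by 268 bases, both rose with 2NF, with log2 ratios at the high concentration of 1.42 and 2.03. HIST2H2AC and HIST2H2BE, which overlap by 265 bases, had log2 ratios of 0.93 and 0.86 at 2NF high, and only HIST2H2BE passed. In all, 6 pairs of kept genes on opposite strands had overlapping windows, and differences within a pair were not tested. The genes of these pairs other than those the rules name were chosen after their values were seen.

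No histone gene passed the trend test with CISP or ETP, which are also DDI chemicals, but single libraries differed from their controls. At CISP low the summed RPM were 0.43-fold those of the control for H1 and 0.51-fold for H2A, and 7 of 41 genes were more than 2-fold lower (6.64% of all targets), among them HIST1H2BC (-3.08 as a log2 ratio), HIST1H2AC (-1.83) and HIST1H4D (-1.49). HIST1H1B had log2 ratios of 1.02, 1.29 and 1.13 over ETP, all against 1 control of 2.19 RPM, the lowest of the 9. HIST1H3B had 58.2 RPM in the CISP control and 77.05, 62.4 and 87.8 RPM at the low, mid and high concentrations of CISP, and 55.98, 45.7, 82.3 and 66.2 RPM in the same order for ETP. HIST2H2AB had 17.2, 21.7, 25.3 and 27.3 RPM for CISP and 19.3, 15.2, 30.9 and 28.7 RPM for ETP, and its highest values lay at CISP high and ETP mid. The median log2 ratio of the 41 genes at the high concentration was 0.022 for CISP and -0.084 for ETP. In the same libraries the 25 genes of the DNA replication list had a median log2 ratio of 0.55 and 0.81, and for ETP CDC45, CDT1 and CDC6, which act in the loading and start of the replication helicase, rose with slopes of 0.72 ± 0.11 (edgeR, SE, adjusted p = 0.00622), 0.56 ± 0.11 (edgeR, SE, adjusted p = 0.0427) and 0.50 ± 0.098 (edgeR, SE, adjusted p = 0.0427).

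COL, a microtubule poison among the non-DDI chemicals, shares its control with AFB1. The median log2 ratio of the 41 genes was 0.024, -0.0050 and -0.034 from the low to the high concentration of COL. Only HIST1H4J was more than 2-fold lower, at COL high (-1.27), where 594 of 12915 targets were. HIST1H3C had 41.9, 49.7, 46.7 and 46.4 RPM, HIST1H4C 148, 125, 131 and 97.9 RPM and HIST2H2AB 13.03, 9.94, 12.02 and 10.95 RPM from the control to the high concentration. HIST1H4C was lowest at COL high, with a slope of -0.16 ± 0.060 (edgeR, SE, adjusted p = 0.0773). At COL high the DNA replication list had a median log2 ratio of 0.54, and the replacement histones H2AFZ, H2AFX and CENPA rose, with slopes of 0.36 ± 0.095 (edgeR, SE, adjusted p = 0.0111), 0.34 ± 0.10 (edgeR, SE, adjusted p = 0.0281) and 0.89 ± 0.20 (edgeR, SE, adjusted p = 0.00317).

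Larger single-library ratios also stood in other chemicals, beside controls that differed in level. At ASC low 7 of 41 genes were more than 2-fold higher than the control (2.38% of all targets), at CISP low 7 were more than 2-fold lower (6.64%) and at NaCl high 6 were more than 2-fold lower (0.805%). HIST1H2BC led these, with log2 ratios of 2.34, -3.08 and -2.30. Its RPM were 20.6, 109, 118 and 95.1 from the ASC control to the high concentration, 22.2, 98.7, 88.9 and 82.8 for AMP, 188, 129, 161 and 37.3 for NaCl and 112, 12.3, 142 and 117 for CISP. The low values were the controls of ASC and AMP and the libraries of CISP low and NaCl high, while the other libraries lay between 82.8 and 188 RPM. HIST1H2AC was also low in both controls, with 68.6, 145, 144 and 141 RPM for ASC and 64.7, 141, 128 and 130.2 RPM for AMP. Against the mean of the 4 media controls instead of the matched control, 0 of the 41 genes were more than 2-fold higher at ASC low and 0 more than 2-fold lower at NaCl high. The share of all targets against that mean was not counted.

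The NaCl series was the only one with a median log2 ratio below 0 at all 3 concentrations, -0.070, -0.44 and -0.57. Its control had the highest summed RPM of the 9 controls, 2772, and the sum at NaCl high was 1795, inside the range of the controls. HIST1H3B had 191, 138, 102 and 112 RPM from the NaCl control to the high concentration, and 0 of the 41 genes passed the edgeR trend test. At an unadjusted p under 0.05, 13 of the 41 had a falling slope and 0 a rising one, where 1.54% of all targets had a falling slope, and 39 of the 41 slopes were below 0. DESeq2 called 1 of the 41 as falling at an adjusted p under 0.05, and 0.0145% of all targets.

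The comparison of DDI with non-DDI chemicals took the 5 chemicals of a class as its replicates, at 1 concentration level at a time, with each treated library against its matched control (edgeR, 13602 targets at the high concentration, 8 residual degrees of freedom). At the high concentration 26 of the 41 genes were higher in the DDI chemicals at an unadjusted p under 0.05 and 0 lower, where 4.33% of all targets were higher. No histone gene reached an adjusted p under 0.05, and 7 targets in all did (0.0515%), a number that was 96 with DESeq2, 170 in 1 fit of all 39 libraries, 0 with no block, and 0 to 17 with 1 chemical left out. The smallest adjusted p of a histone gene was 0.083, for HIST2H2AB and HIST1H2BN. The median difference of the 41 genes was 0.72 against -0.014 over all targets tested.

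HIST2H2AB differed by 1.51 ± 0.29 (edgeR, SE, adjusted p = 0.083), from a log2 change of 1.36 over the DDI chemicals and -0.15 over the non-DDI chemicals. Its log2 ratios at the high concentration were 1.97 for AFB1, 2.12 for 2NF, 0.64 for CISP, 0.55 for ETP and 1.18 for MMS, and -0.23, -0.14, 0.23, 0.33 and -0.44 for COL, 2DG, ASC, AMP and NaCl. The 2 classes did not overlap. HIST1H2BN differed by 1.14 ± 0.22 (edgeR, SE, adjusted p = 0.083), with log2 ratios of 1.41, 1.66, 0.67, 0.23 and 1.09 for AFB1, 2NF, CISP, ETP and MMS, and at most 0.18 (ASC) for a non-DDI chemical. These 2 genes and HIST1H3B were the 3 of 41 in which the lowest of the DDI chemicals was above the highest of the non-DDI ones, against 0.914% of 12915 targets.

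Besides HIST2H2AB, the largest differences were 1.99 ± 0.65 (edgeR, SE, adjusted p = 0.393) for HIST1H2AJ, 1.75 ± 0.48 (edgeR, SE, adjusted p = 0.26) for HIST1H1B, 1.54 ± 0.35 (edgeR, SE, adjusted p = 0.149) for HIST1H3B and 1.44 ± 0.49 (edgeR, SE, adjusted p = 0.437) for HIST1H3A. HIST2H3D, HIST1H2BK and HIST1H2BE were the 3 genes with a negative difference, -0.14 ± 0.50 (edgeR, SE, adjusted p = 0.983), -0.11 ± 0.17 (edgeR, SE, adjusted p = 0.948) and -0.10 ± 0.44 (edgeR, SE, adjusted p = 0.988), all within their error. By class, 10 of 12 H2A, 7 of 9 H4, 4 of 8 H3, 2 of 3 H1 and 3 of 9 H2B genes were higher at an unadjusted p under 0.05. The spread in this test is that between chemicals. Without AFB1 the count of 26 fell to 11, and without COL to 17.

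At the mid concentration 13 of the 41 genes were higher in the DDI chemicals at an unadjusted p under 0.05 (2.49% of all targets) and 0 lower, with a median difference of 0.42, and at the low concentration 1 was higher (1.03%) and 0 lower, with a median of 0.16. No target had an adjusted p under 0.05 at either level in the edgeR test (0% at each). Unadjusted, 339 targets were higher and 444 lower at the mid concentration, and 140 higher and 168 lower at the low concentration. DESeq2 on the same design gave 12 targets at the mid level and 0 at the low level.

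Genes that supply or use histones were read beside the cluster. In the list of 22 tested genes of histone mRNA processing and histone handling, ASF1B, CHAF1A and CHAF1B rose with both AFB1 and 2NF, and the other 19 did not pass, SLBP and NPAT among them. ASF1B passes new H3 and H4 to the assembly factors, and CHAF1A and CHAF1B are subunits of the factor that places them on newly made DNA. ASF1B had 6.81 RPM in the 2NF control and 12.03, 20.4 and 35.5 RPM at the low, mid and high concentrations of 2NF, a slope of 0.77 ± 0.10 (edgeR, SE, adjusted p = 1.95e-05), and was 1 of the 7 targets with an adjusted p under 0.05 between classes at the high concentration, with a difference of 1.83 ± 0.27 (edgeR, SE, adjusted p = 0.0329). With MMS 4 of the 22 rose (ZNF473, UPF1, ASF1B and DAXX) and with COL 2 (ASF1B and DAXX). ASF1B was the 1 of the 22 that rose with ETP, with a slope of 0.69 ± 0.10 (edgeR, SE, adjusted p = 0.00326).

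Of the 11 replacement histone genes tested, H2AFX and H2AFZ rose with AFB1, and these with H1F0 and CENPA, the centromeric H3, rose with 2NF. H2AFX, the H2A form that is phosphorylated at DNA breaks, had slopes of 0.44 ± 0.10 (edgeR, SE, adjusted p = 0.00737) and 0.54 ± 0.11 (edgeR, SE, adjusted p = 0.0013). With MMS H2AFX and H1FX rose and H3F3A fell, with a slope of -0.25 ± 0.083 (edgeR, SE, adjusted p = 0.0377). The list's median slope was 0.13 with 2NF and 0.080 with AFB1, against 0.46 and 0.32 for the cluster genes.

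The DNA replication list rose beside the histones with AFB1 and 2NF, in 18 and 21 of its 25 genes. RRM2, a subunit of the enzyme that makes deoxynucleotides, had 28.9 RPM in the 2NF control and 72.7, 153 and 219 RPM at the low, mid and high concentrations of 2NF and a slope of 0.96 ± 0.15 (edgeR, SE, adjusted p = 0.000152). GINS1 and TK1 followed with slopes of 0.76 ± 0.13 (edgeR, SE, adjusted p = 0.000206) and 0.72 ± 0.13 (edgeR, SE, adjusted p = 0.000381). With MMS 6 of the 25 rose, and with COL 2. The hepatocyte markers fell at the same time in 5 of 10 genes with AFB1, 5 with 2NF, 7 with MMS and 7 with COL, and their summed RPM at the high concentration were 26741, 14303, 8243 and 21209, against 25902 to 50352 in the 9 controls. With COL 0 of the 41 cluster genes passed the trend test. Of the 4 cholangiocyte markers tested, 1 rose and 2 fell with 2NF, 3 fell with MMS, 1 fell with COL and 0 passed with AFB1. In these bulk libraries fewer cells of a type and less RNA per cell cannot be told apart, and the part of cell mixture in the rise of the histone genes was not tested.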

How the data were processed

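The counts deposited by the authors are reads per amplicon target, made with the Ion Torrent Suite, its ampliSeqRNA plugin and the TMAP aligner on hg19. The RPM deposited by the authors are the same counts per 1000000 reads of the library, with no further normalization. RNA of 3 cultures was pooled per condition, so the spread between cultures is not in the files. Groups came from the sample labels. From the counts, edgeR 4.0.16 (R 4.3.3; TMM, filterByExpr, quasi-likelihood F test, Benjamini-Hochberg over all targets tested) gave the difference between DDI and non-DDI chemicals (19 libraries, 8 residual degrees of freedom) and the slopes over concentration rank (39 libraries, 20 residual degrees of freedom), with a block for each control and its treated libraries. The SE beside each edgeR value was computed as the absolute log2 difference or slope divided by the square root of its F statistic. From the RPM, log2(RPM + 1) was set against the matched control, and more than 2-fold counted as a call. Such ratios understate changes of low genes. The scripts were tested on simulated data.

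Genes named were the 2 with the highest mean RPM over controls in each class, the 5 largest positive and 3 most negative class differences, the 3 largest called slopes per chemical, the HIST2 genes and the list of genes with polyadenylated forms; genes of other lists were named where they passed a test, and any other gene was chosen after its values were seen. The members and lists were chosen with earlier results of these data known. RefSeq promoters matched 59 of the 66 genes (35 of the 41), and stem-loops were read from GENCODE release 29 transcripts. Alternatives were DESeq2 1.42.0, its size factors, other filters, other controls, no control set block and leaving out chemicals or concentrations. Other columns of the tables hold annotation.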

Additional observations from a re-analysis of the deposited data

Results flagged for a closer look

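Of 84 groups of 4 controls or 5 treated chemicals examined over 21 named genes, 2 had 1 library far from the others. That is a smaller share than chance gives, which is about 1 in 20. HIST1H2BK in the DMSO controls had a log2(RPM + 1) of 7.26 in the control shared by AFB1 and COL, while the other 3 lay at 7.59, 7.60 and 7.61. HIST1H3B had 5.41 in the 2NF control, while the other DMSO controls lay at 5.83, 5.85 and 5.89. The ratios of HIST1H2BK to the first control and of HIST1H3B to the second rest on these libraries.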

How the results depend on the processing

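Each treated library was matched to its own control through the block of the fits; the labels give no replicate numbers to pair by. Leaving out 1 chemical at a time gave 11 to 29 of 41 genes higher at the high concentration (26 with all), 8 to 17 at the mid level (13) and 0 to 6 at the low level (1), and 0 to 17 targets at an adjusted p under 0.05 at the high concentration (7) and 0 to 2 at the mid (0). At the high concentration those targets numbered 96 with DESeq2, 34 with no filter, 170 in 1 fit of all 39 libraries, and 0 with a median of at least 10 counts or with no control set block. At the mid concentration DESeq2 gave 12, the fit of 39 libraries 14 and no control set block 1. With no block, 7 histone genes were higher at the mid level and 2 at the low level; without the libraries of CISP low and 2DG low, chosen after seeing the data, 0 were.

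With the high concentration left out, 0 genes rose with AFB1, 5 with 2NF and 0 fell with MMS. DESeq2 called 1 falling gene with COL (7.54% of all targets fell) and 1 with NaCl (0.0145%). With the vehicle as the block, 1 rose with CISP (0.253% of all targets rose) and 1 with ETP (0.5%). In that fit 6 fell with COL (10.4% of all targets fell), and 7 without the control library of AFB1 and COL (10.3%). Against the mean of all 9 controls, 10 genes were more than 2-fold higher at AFB1 high, 4 at 2NF mid, 16 at MMS high and 2 at ASC low, and 0 lower at NaCl high; against the vehicle mean 0 were higher at ASC low and 0 lower at NaCl high. DESeq2 size factors left 6 at MMS high. For these counts of 2-fold ratios the share of all targets was not counted.

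Directions turned for the following values. The class difference of HIST2H3D was 0.23 and that of HIST1H2BK 0.042 with no block, and leaving out 1 chemical gave -0.44 to 0.20 for HIST2H3D, -0.18 to 0.040 for HIST1H2BK, -0.27 to 0.13 for HIST1H2BE and -0.089 to 0.36 for HIST1H2AC. Without the high concentration the slope was 0.12 for HIST1H2BE with AFB1 and -0.036 with 2NF, -0.31 for HIST1H2AC and -0.73 for HIST1H2BC with 2NF, and -0.00196 for HIST1H1C and -0.055 for HIST1H2BC with MMS; without the low concentration it was 0.21 for HIST1H2BE with AFB1. With the vehicle as the block, AFB1 slopes were -0.21 for HIST2H3D, -0.00287 for HIST1H2BK and -0.00469 for HIST2H2BC, and without the shared control -0.28, -0.018 and -0.018. The cause was not tested for any of these. Depth limits the genes of few counts, and pooled RNA leaves the spread between cultures unknown.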
